A study of Mus musculus with 6 samples.

Results

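The genes described here encode precursors of 10 non-opioid neuropeptides of sensory neurons. They were chosen by symbol as Tac1, Calca, Calcb, Adcyap1, Vip, Gal, Npy, Sst, Nppb and Cartpt, and all 10 were found among the 35976 genes of each count table. RNA was sequenced from cultured neurons of the lumbar dorsal root ganglia (DRG) of adult C57BL/6 mice of both sexes, after removal of ribosomal RNA. A group of 3 cultures received vehicle and another group of 3 received HC-HA/PTX3 at 15 µg/mL, a hyaluronic acid complex prepared from human amniotic membrane. Treatment began 24 h after plating and lasted 24 h, and the medium of both groups held fetal bovine serum and GDNF. The study calls the cultures of a group biological replicates, but nothing in the labels says that they came from separate animals. The spread behind the p-values may therefore be technical. Where a fit compares same-numbered cultures, that spread is how far the pairs differ in their change. Where a fit ignores the pairing, it is the spread between the cultures of a group. The total counts were between 37434266 and 54117547 per culture, and each treated library was smaller than each vehicle library. Levels are given in CPM, read counts scaled to a common library size with TMM factors, where 1 CPM stood for 37.1 to 56.0 counts. An absence of counts allowed a level of up to 0.0808 CPM, the value of 3 counts in the culture with the highest such limit, and floors and count intervals cover counting error only.

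Neuropeptides are made as larger precursors, cut and often amidated in the secretory pathway, stored in dense-core vesicles and released from both the central and the peripheral endings of sensory neurons. Substance P, from Tac1, and calcitonin gene-related peptide (CGRP), from Calca and Calcb, mark peptidergic nociceptors. Galanin, NPY and VIP are known to increase in DRG neurons after nerve injury, while somatostatin and natriuretic polypeptide b mark a small class of itch-related neurons.

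The changes were taken within same-numbered pairs, with the replicate number as a block in edgeR's quasi-likelihood test over all genes. A gene counts as called where p, adjusted over all tested genes by Benjamini and Hochberg, was under 0.05 and its log2 fold change was over 0.5 in size. Of the 10 genes, 9 had enough counts to be tested and 3 were called higher after HC-HA/PTX3, namely Tac1, Calcb and Nppb, where 3.32% of the 18277 genes tested were called higher. The count called lower was 0, where 5.38% of the tested genes were called lower, and edgeR gave no fitted value below 0 an unadjusted p-value under 0.05. DESeq2 and limma-voom with the block and ComBat-seq with limma also called 0 members lower. These counts describe a list chosen with earlier results known, and give no test of the list. The adjusted p-value alone, with no condition on the fold change, was met in the higher direction by 4 members, the same 3 and Adcyap1, and by 7.67% of all tested genes. The median log2 fold change was 0.26 (0.255) over the 9 tested members and -0.01 (-0.007) over all tested genes.

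The calls depended on the tool when the pairing was left out. Without the block, edgeR called 0 members (3 at an unadjusted p-value under 0.05) and 0 of the 18277 genes (2089 at that level), and limma-voom also called 0. DESeq2 without the block called 343 genes and included Tac1, Calcb and Nppb, with adjusted p-values of 0.001, 0.0198 and 0.0481.

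**Figure D1:**
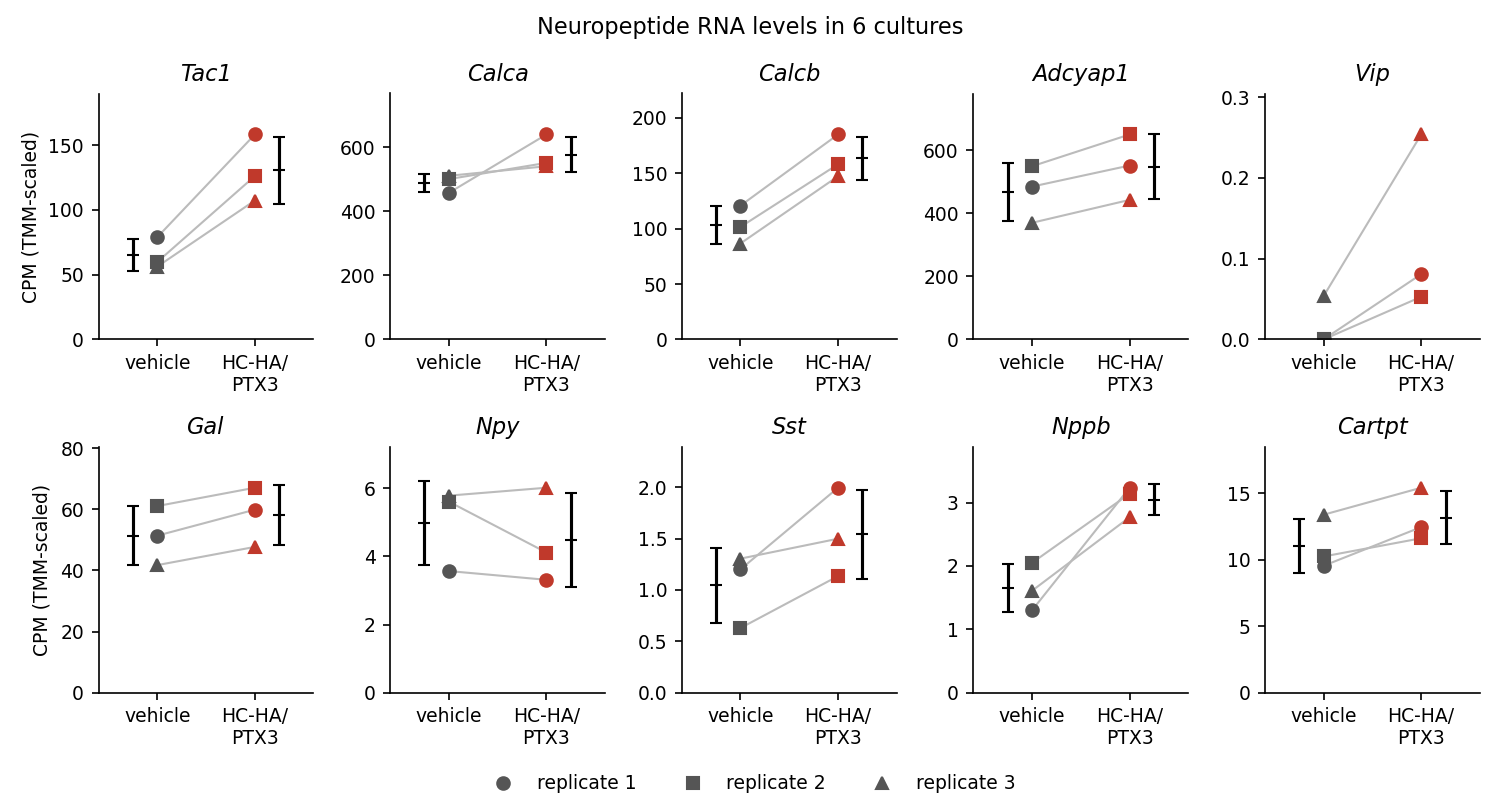
Levels of the 10 neuropeptide genes in TMM-scaled CPM (vertical axes, linear and starting at 0, a scale for each gene) in vehicle (grey) and HC-HA/PTX3 (red) cultures, where symbols mark the replicate number, lines join same-numbered cultures and bars beside the points give the mean and SD of 3 cultures, left out for Vip. The treated cultures of Tac1, Calca, Calcb and Nppb lie wholly above the vehicle cultures, and Npy is higher with treatment in 1 of 3 pairs.

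The cultures were checked against markers. All 13 pan-neuronal markers passed the filter, with 0 called in edgeR and 5 at an unadjusted p-value under 0.05. Tubb3, a neuronal tubulin, and Prph, peripherin, were the most abundant per kilobase. The summed level of the list was 7843 ± 528 CPM in the vehicle group and 8396 ± 665 CPM in the treated group (SD, n = 3 each). Sympathetic neurons, another source of NPY and galanin, are marked by Dbh and Hand2 among others. Hand2 had at most 2 counts in a culture and Dbh at most 7, whereas Chrna3, which DRG neurons may also express, was at 11.7 ± 4.83 CPM in vehicle (SD, n = 3). A pair of other tested genes of that list were present at 0.406 to 1.33 CPM over the 6 cultures. In each marker list described here in which edgeR called 0 genes, DESeq2 and limma-voom with the block and ComBat-seq with limma called 0 as well.

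For a comparison of levels between genes, CPM was divided by the exon length in GENCODE M21. In the vehicle cultures Calca stood highest, at 291 ± 16.8 CPM per kilobase, rank 44 of the 26705 genes with a known length (SD, n = 3). Adcyap1, which encodes PACAP, followed at 124 ± 24.0 CPM per kilobase, Calcb at 81.5 ± 13.6 and Gal at 65.2 ± 12.3. The cultures of Calcb and Gal overlapped on this scale, while Calca and Adcyap1 did not overlap with the next gene. Tac1 lay lower, at 19.1 ± 3.59 CPM per kilobase and rank 2518, and Npy and Cartpt came next at 8.81 ± 2.18 and 8.66 ± 1.60, with overlapping cultures. Nppb at 2.11 ± 0.483 and Sst at 1.45 ± 0.504 CPM per kilobase also overlapped with each other. Vip was close to absence, at 0.00525 ± 0.00909 CPM per kilobase. The levels of the 10 genes thus spanned from one of the most abundant transcripts of the culture to a gene without a count in 2 vehicle cultures.

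Promoters are shown for 3 genes, Tac1 as the member with the largest fitted change and Calca and Adcyap1 as the most abundant ones. RefSeq's table (GRCm38.p6) had an entry for 9 of the 10 members and none for Calcb. The 250 bases before each start were searched on both strands for TGACG, a part of the cAMP response element, and for the full palindrome TGACGTCA, which itself holds TGACG on both strands. A search was also made for the AP-1 site with the letters TGANTCA. The TATA box was searched as TATAAA, and the E-box was searched in the form CACGTG. The capitals mark TGACG or its reverse complement CGTCA. In GENCODE M21 the first exon of Tac1 begins inside the window, so the printed stretch ends before it. The stretches are chr6:7554811-7554878 on the plus strand for Tac1, chr7:114636358-114636607 on the minus strand for Calca and chr17:93198767-93199016 on the plus strand for Adcyap1.
Tac1: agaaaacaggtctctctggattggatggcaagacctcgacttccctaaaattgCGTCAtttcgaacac
Calca: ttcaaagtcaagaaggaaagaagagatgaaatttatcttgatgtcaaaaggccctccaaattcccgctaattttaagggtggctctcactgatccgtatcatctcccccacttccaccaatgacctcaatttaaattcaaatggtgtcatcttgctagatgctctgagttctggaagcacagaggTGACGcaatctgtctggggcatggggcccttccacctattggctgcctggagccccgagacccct
Adcyap1: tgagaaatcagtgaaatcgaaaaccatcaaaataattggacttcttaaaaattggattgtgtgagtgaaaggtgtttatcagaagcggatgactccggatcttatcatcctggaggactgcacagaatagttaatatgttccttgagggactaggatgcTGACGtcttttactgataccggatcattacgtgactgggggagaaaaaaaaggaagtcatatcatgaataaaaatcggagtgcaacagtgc

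The letters TGACG were found in the windows of 6 of the 9 members (Tac1, Calca, Adcyap1, Vip, Sst and Cartpt), and in 17.8% of all 32851 windows searched. In Tac1 they began 197 and 43 bases before the RefSeq start, the latter in the bases not printed, in Calca 65 and in Adcyap1 91. The palindrome TGACGTCA was found in Sst and Cartpt, and in 1.55% of all windows. The letters TATAAA were found in Vip, in Nppb, 31 bases before its start, and before the 2nd RefSeq start of Adcyap1, which is not printed, against 12.4% of all windows. The letters CACGTG were found in the unprinted bases of Tac1 (6.02% of all windows), while TGANTCA was found in 0 of the 9 (6.75%). A match describes these letters and is not a measured binding site.

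Tac1, the precursor of substance P and neurokinin A on chromosome 6 of mm10 (7554879 to 7565834), had the largest fitted change of the members. Its level was 78.9, 59.8 and 56.2 CPM in vehicle replicates 1, 2 and 3, and 158, 126 and 107 CPM in the same-numbered treated cultures. The lowest treated culture lay above the highest vehicle culture. The treated level was 2.01, 2.11 and 1.91 times that of the vehicle culture in pairs 1, 2 and 3, so the change varied less between pairs than the level did between cultures. The fitted log2 fold change was 1.005 (SE 0.06, 95% interval 0.86 to 1.15) with an adjusted p-value of 4.92e-05 in edgeR, or 0.227 without the block. In these bulk samples, more cells of a type and more RNA per cell cannot be told apart. Of 4 listed markers of peptidergic nociceptors, 3 are described here, Trpv1, Kit and Adra2a, chosen after their values were seen. These 3 had log2 fold changes of -0.03, -0.04 and -0.14 (SE 0.07, 0.08 and 0.11) and were not called.

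Calca and Calcb encode CGRPα and CGRPβ and lie near each other on chromosome 7 (114631478 to 114636357 and 114718643 to 114723365). Calca was measured at 458, 500.5 and 511 CPM in vehicle replicates 1, 2 and 3 and at 639.9, 551 and 541 CPM in the treated ones. All treated values exceeded all vehicle values, but replicate 1 was the lowest vehicle culture and the highest treated one, and the log2 ratios within the pairs ran from 0.08 in pair 3 to 0.48 in pair 1. The fitted log2 fold change of Calca was 0.23 (SE 0.08, 95% interval 0.05 to 0.42, adjusted p = 0.0711 in edgeR), and the gene was not called. It was 0.11 without pair 1 or either of its cultures, and 0.33 without pair 3, where the adjusted p-value was 0.0222 below the fold-change threshold. Calcb was measured at 121, 101.5 and 86.6 CPM in vehicle and at 185, 158 and 147 CPM after HC-HA/PTX3. The groups did not overlap, and the 3 log2 ratios within pairs were close to each other, at 0.62, 0.64 and 0.77. Calcb was called at a log2 fold change of 0.67 (SE 0.06, 95% interval 0.54 to 0.81, adjusted p = 0.000389 in edgeR, or 0.252 without the block).

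The balance of both CGRP genes was compared within each culture, where library scaling cancels. Calcb amounted to 26.4%, 20.3% and 16.95% of the CPM of Calca in vehicle replicates 1, 2 and 3, and to 28.9%, 28.7% and 27.2% in the treated ones. The share was higher in the treated culture of all 3 pairs and the groups did not overlap. The log2 ratio of Calcb to Calca was higher by 0.44 on average (SD 0.28 over 3 pairs), with differences of 0.13, 0.50 and 0.69 in pairs 1, 2 and 3. A two-sided exact permutation test that takes the 6 cultures as unpaired gave p = 0.1, the smallest that 3 cultures against 3 allow, so it could not reach 0.05. Of the distinct words of 50 bases in their transcripts, Calca and Calcb shared 12, 0.715% of those of Calca and 0.952% of those of Calcb. How the counting treated reads that match both genes is not given in the sources used here.

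**Figure D2:**
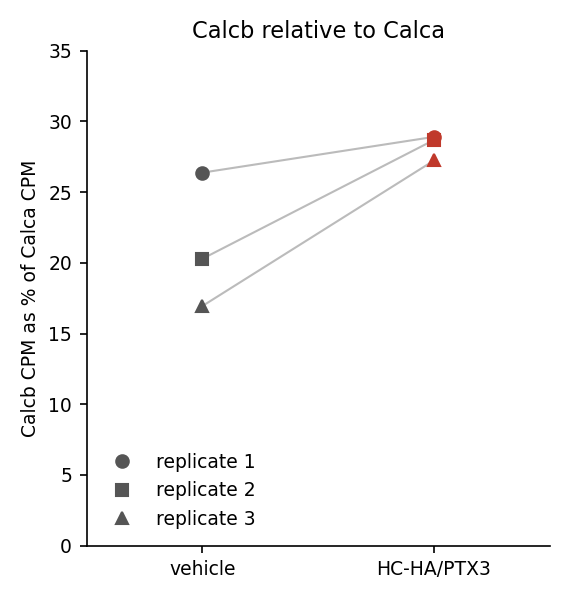
Calcb CPM as a percent of Calca CPM in each culture (vertical axis, starting at 0), with lines joining same-numbered cultures. Vehicle cultures (grey) spread from 16.95% to 26.4%, and HC-HA/PTX3 cultures (red) lie between 27.2% and 28.9%.

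Adcyap1, the PACAP gene on chromosome 17 (93199017 to 93206537), had 485, 549 and 369.8 CPM in vehicle replicates 1, 2 and 3 and 551.5, 649.9 and 442.5 CPM in the treated ones. The groups overlapped, with replicate 3 low and replicate 2 high in both of them, and the treated culture was higher in each pair, by 0.19, 0.24 and 0.26 on the log2 scale. Its fitted log2 fold change of 0.23 (SE 0.06, 95% interval 0.09 to 0.36) had an adjusted p-value of 0.0262 in edgeR, under the threshold, but stayed below the fold-change threshold, so it was not called. The adjusted p-value was 0.719 without the block, and 0.147 and 0.0784 without pairs 2 and 3.

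Vip, on chromosome 10 (5639218 to 5647617), encodes vasoactive intestinal peptide, which belongs to the same peptide family as PACAP. It had 0, 0 and 3 counts in vehicle replicates 1, 2 and 3 and 3, 2 and 10 counts in the treated replicates, at most 0.0536 and 0.254 CPM. It did not pass the filter and was not tested. The summed counts of 3 and 15 gave a depth-scaled ratio of 6.08 with an exact binomial 95% interval from 1.72 to 32.7, which covers counting error only. Of the 15 treated counts 10 were in replicate 3, without which the ratio was 3.09 with an interval from 0.601 to 19.9, and without vehicle replicate 3 no vehicle count was left. Of the distinct words of 50 bases in the transcript of Vip, 12 (0.353%) were found in 537 other genes, and the part of reads from those genes in its counts was not tested. Replicate 3 held the most counts in both groups, and 5 of the 6 cultures were at or under the level of 3 counts.

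Gal and Npy encode galanin and neuropeptide Y, which act mainly through inhibitory receptors. Gal, on chromosome 19 (3409915 to 3414544), had 51.4, 61.1 and 41.8 CPM in vehicle and 59.9, 67.1 and 47.7 CPM in treated replicates 1, 2 and 3. Its cultures overlapped between the groups and followed the same order by replicate as Adcyap1, with replicate 2 highest and replicate 3 lowest. The fitted log2 fold change of Gal was 0.18 (SE 0.07, 95% interval 0.03 to 0.33, adjusted p = 0.0858 in edgeR), with the treated culture higher in 3 of 3 pairs. Npy, on chromosome 6 (49822710 to 49829507), had 3.57, 5.61 and 5.79 CPM in vehicle and 3.31, 4.12 and 6.02 CPM in the treated replicates. It was the 1 member with a fitted value below 0, at -0.16 (SE 0.15, 95% interval -0.50 to 0.17, adjusted p = 0.498 in edgeR), and the treated culture was higher in 1 of 3 pairs. Its spread between replicate numbers exceeded the difference between the groups. Without pair 2 the fitted value of Npy was -0.02 and without pair 3 -0.27, and leaving out a single culture of these pairs gave -0.02 to -0.29.

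Nppb, on chromosome 4 (147985788 to 147987205), encodes natriuretic polypeptide b, a transmitter of itch-related neurons. Its counts were 52, 88 and 90 in the vehicle group and 120, 119 and 109 in the treated group (replicates 1, 2 and 3), or 1.30, 2.05 and 1.61 CPM against 3.23, 3.14 and 2.77 CPM. The groups did not overlap, and the treated culture held 2.49, 1.53 and 1.72 times the vehicle level in pairs 1, 2 and 3. Nppb was called at a log2 fold change of 0.89 (SE 0.20, 95% interval 0.45 to 1.33, adjusted p = 0.0119 in edgeR), against an adjusted p-value of 0.281 without the block. Without pair 1, whose vehicle culture had the lowest level, the log2 fold change was 0.70 and the adjusted p-value 0.098, so the call was lost. The same happened without vehicle replicate 1 alone (0.0933) and without HC-HA/PTX3 replicate 1 alone (0.103), and over the 22 alternatives the adjusted p-value ran from 7.98e-05 to 0.281.

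Sst, on chromosome 16 (23889573 to 23890958), encodes somatostatin and is made by the same class of neurons as Nppb. Its counts were 48, 27 and 73 with vehicle and 74, 43 and 59 with treatment, or 1.199, 0.629 and 1.30 CPM against 1.99, 1.13 and 1.498 CPM. The groups overlapped, replicate 2 being low in both, while all 3 pairs were higher with treatment. The fitted log2 fold change of 0.57 (SE 0.23, 95% interval 0.05 to 1.08) was over the fold-change threshold, but the adjusted p-value was 0.118 in edgeR, so Sst was not called. With ComBat-seq in place of the block, limma called it at a log2 fold change of 0.59 and an adjusted p-value of 0.013, and over all 22 alternatives this value ran from 0.013 to 0.699. Other markers of these neurons, Il31ra, Osmr, Cysltr2 and Htr1f, were all tested, with 0 of 4 called in edgeR and 2 at an unadjusted p-value under 0.05, and their median log2 fold change was 0.07. Osmr was the most abundant of them per kilobase, and its log2 fold change was -0.05 (SE 0.07), while that of Htr1f, the next, was -0.29 (SE 0.13). Cysltr2 at 0.34 (SE 0.14, higher in 3 of 3 pairs) and Il31ra at 0.20 (SE 0.13) had values in the other direction.

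Cartpt, on chromosome 13 (99898489 to 99901091), encodes the precursor of CART peptides. Its level was 9.54, 10.2 and 13.4 CPM in vehicle and 12.5, 11.6 and 15.4 CPM in treated replicates 1, 2 and 3. The groups overlapped and replicate 3 was highest in both. The fitted log2 fold change was 0.25 (SE 0.11, 95% interval 0.02 to 0.49, adjusted p = 0.119 in edgeR), and all 3 pairs were higher with treatment.

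**Figure D3:**
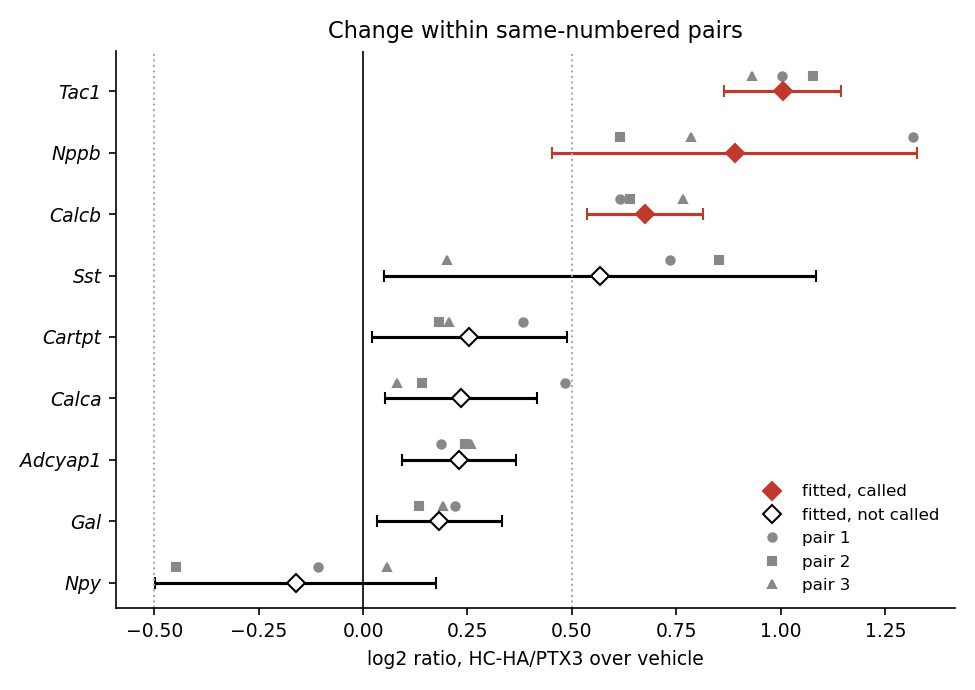
Fitted log2 ratio of HC-HA/PTX3 over vehicle for the 9 tested members (diamonds with 95% intervals, red where called) and the log2 ratio within each of the 3 pairs (grey symbols), where dotted lines mark the fold-change threshold of 0.5 in either direction. Tac1 at 1.005, Nppb at 0.89 and Calcb at 0.67 are called, and the 3 pairs of Tac1 and of Calcb lie close together.

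Members differed in how the cultures of a group lay apart. Tac1 and Calcb were highest in replicate 1 and lowest in replicate 3 of both groups, Adcyap1 and Gal highest in replicate 2 and lowest in replicate 3, and Npy highest in replicate 3 and lowest in replicate 1. Nppb and Calca had no shared order, and each was lowest in replicate 1 among the vehicle cultures and highest in replicate 1 among the treated ones. In 4 of the 9 tested members, Tac1, Calca, Calcb and Nppb, the 3 treated cultures lay wholly above the 3 vehicle cultures, and in 9.44% of all tested genes they did. No member exon shared bases with an exon of another gene in the annotation.

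Receptors of these peptides and of their close relatives, with receptor subunits, formed a list of 26 genes, of which 16 passed the filter. Of these, 1 was called higher and 1 lower, where 8.70% of all tested genes were called in either direction, and the list's median log2 fold change was 0.10. Ramp3, which with Calcrl forms an adrenomedullin receptor, rose from 0.674, 0.838 and 0.875 CPM in vehicle to 1.54, 1.002 and 1.96 CPM in treated replicates 1, 2 and 3 (fitted log2 value 0.89, SE 0.26, adjusted p = 0.0388 in edgeR). Npr3, the clearance receptor that removes natriuretic peptides, fell from 5.94, 8.43 and 7.48 CPM to 3.66, 6.20 and 4.24 CPM (fitted log2 value -0.65, SE 0.14, adjusted p = 0.0095 in edgeR). The groups of Ramp3 did not overlap, those of Npr3 did, and each pair moved in the direction of the call. Both calls were lost without the block, where the adjusted p-values were 0.348 and 0.413, and without pair 1 or either of its cultures, where without the pair they were 0.182 and 0.0727. Ramp3 was also lost without pair 3 (0.171) or either of its cultures and with DESeq2 and the block (0.127). Over the 22 alternatives the adjusted p-value ran from 0.0037 to 0.38 for Ramp3 and from 0.000144 to 0.413 for Npr3.

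The most abundant receptors per kilobase in vehicle were Npr2 and Npy1r. Npr2, which binds C-type natriuretic peptide, was at 88.4 ± 5.75 CPM in vehicle and 91.4 ± 5.37 CPM in treated cultures, and Npy1r, a receptor of NPY, was at 58.0 ± 0.695 and 64.4 ± 2.18 CPM (SD, n = 3 each). Their log2 fold changes were 0.05 (SE 0.06, adjusted p = 0.616 in edgeR) and 0.15 (SE 0.07, adjusted p = 0.142), and neither was called. For the partners of the called precursors, picked after their values were seen, Tacr1, the substance P receptor, ran from 0.116 to 0.339 CPM in vehicle and from 0.237 to 0.593 CPM in treated cultures (log2 fold change 0.75, SE 0.37, adjusted p = 0.184 in edgeR). Ramp1, which makes Calcrl a CGRP receptor, did not pass the filter, at 0.106 to 0.2997 CPM over the 6 cultures, and Calcrl itself changed by -0.08 (SE 0.09, adjusted p = 0.603 in edgeR).

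The machinery that cuts, stores and degrades peptides was measured as 7 processing enzymes, 7 granins and 5 inactivating peptidases, and all 19 genes passed the filter. In edgeR, 0 of the 19 were called with the block and 7 had an unadjusted p-value under 0.05, while 4 had an adjusted p-value under 0.05 in the higher direction below the fold-change threshold. The same count of 0 came from DESeq2, limma-voom and ComBat-seq with limma. Of all 18277 tested genes, 8.70% were called in edgeR with the block and 6068 had an unadjusted p-value under 0.05. An adjusted p-value under 0.05 in the higher direction was met by 7.67% of them. Cpe, the carboxypeptidase that trims cut peptides and the most abundant enzyme per kilobase, was at 492, 408 and 445 CPM in vehicle and 570.5, 507 and 545 CPM in treated replicates 1, 2 and 3 (log2 fold change 0.27, SE 0.06, adjusted p = 0.0131 in edgeR). The groups of Cpe did not overlap, and Cpd, the next enzyme per kilobase, had a log2 fold change of -0.17 (SE 0.06). The other 3 of the 4, Scg2, Scg5 and Pcsk1n, named after their values were seen, are granins, cargo proteins of dense-core vesicles, and had log2 fold changes of 0.31, 0.27 and 0.34. Vgf, the most abundant granin per kilobase, was at 1046 ± 26.0 CPM in vehicle and 1048 ± 96.0 CPM in treated cultures (SD, n = 3 each), and Scg3, the next granin, had a log2 fold change of 0.22 (SE 0.07). The medians were 0.00 (-0.004) for the enzymes, 0.22 for the granins and -0.14 for the peptidases, of which Ece1 was the most abundant per kilobase at 174 ± 31.3 CPM in vehicle (SD, n = 3), followed by Ece2, and their log2 fold changes were -0.14 and -0.02.

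Among 38 further precursors of non-opioid peptides, 15 passed the filter, 2 had no count in any culture, 2 were called higher and 1 lower, where 8.70% of all tested genes were called in either direction. Nmb, the precursor of neuromedin B, a peptide of itch and pain neurons, was at 17.5, 18.95 and 18.4 CPM in vehicle and 29.9, 24.4 and 26.8 CPM after treatment, without overlap (log2 fold change 0.56, SE 0.10, adjusted p = 0.00426 in edgeR). Nmu, the precursor of neuromedin U, was low, at 0.375, 0.396 and 0.0714 CPM against 1.02, 0.6595 and 0.533 CPM, and its groups did not overlap either (log2 fold change 1.48, SE 0.40, adjusted p = 0.0278). Adm, the precursor of adrenomedullin, a peptide of the CGRP family made by many cell types, fell from 3.55, 6.77 and 7.16 CPM to 1.78, 3.43 and 4.14 CPM with overlapping groups (log2 fold change -0.91, SE 0.14, adjusted p = 0.00266). Without the block the adjusted p-values of Nmb, Nmu and Adm were 0.244, 0.434 and 0.445. Nmb was below the fold-change threshold without pair 1 (0.46) or either of its cultures. Nmu was lost without pair 1 (adjusted p = 0.116), without pair 3 (0.0836) and without any single culture of these pairs. DESeq2 with the block gave it no adjusted p-value and did not call it, and it did not pass a minimum of 10 counts in every culture. Nts, the precursor of neurotensin, was the most abundant of this list per kilobase, at 59.5 ± 5.80 CPM in vehicle and 69.7 ± 8.37 CPM in treated cultures (SD, n = 3 each), and with an adjusted p of 0.0349 at a log2 fold change of 0.23 in edgeR it was not called.

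**Figure D4:**
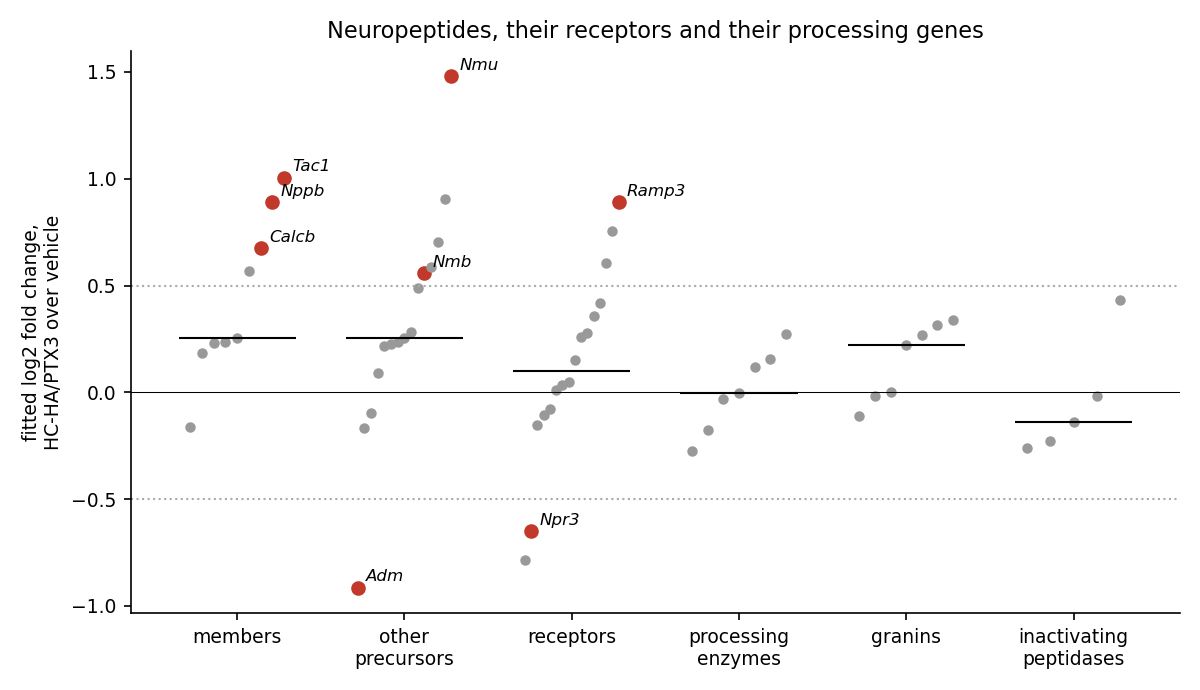
Fitted log2 fold change (vertical axis, HC-HA/PTX3 over vehicle) of each tested gene of the 10 members, 38 other precursors, 26 receptors and 19 processing, granin and peptidase genes. Called genes are red and named, black lines are medians and dotted lines mark the fold-change threshold; 3 members, 3 other precursors and 2 receptors are called, and none of the processing enzymes, granins or peptidases.

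Non-neuronal transcripts differed between the groups as well. The 5 fibroblast markers, all tested, summed to 1469, 1415 and 628 CPM in vehicle replicates 1, 2 and 3 and to 765, 844 and 218 CPM in the treated ones, a lower sum in each pair. Their most abundant gene, Col1a1, was at 642, 628 and 265 CPM against 211, 302 and 56.4 CPM, and it and Col1a2 were called lower (log2 fold changes -1.62 and -1.11, adjusted p = 0.000547 and 0.0027 in edgeR, or 0.439 and 0.655 without the block). Without pair 3 or its treated culture the value of Col1a2 was -0.74, and it was still called. The other 3, Dcn, Lum and Pdgfra, had log2 fold changes of -0.09, -0.31 and -0.25 and were not called, so the lower sum was carried mainly by the collagen genes. All 5 were fitted below 0. An unadjusted p-value under 0.05 was met by 3 of them in edgeR, the collagen genes and Pdgfra, and by 4 in DESeq2 with the block. Of the 5, 2 were called lower in edgeR, where 5.38% of all tested genes were. The 6 satellite glia markers summed to 1804, 1023 and 503.5 CPM in vehicle and 1636, 1100 and 506 CPM after treatment, so they differed by replicate number far more than by group, with 0 called in edgeR, 4 at an unadjusted p-value under 0.05 and Apoe and Glul the most abundant per kilobase (log2 fold changes -0.21 and 0.28). The median of the 6 was -0.18, and Fabp7 (-0.40, adjusted p = 0.0154 in edgeR) and Kcnj10 (-0.34, 0.0108) were lower in all 3 pairs while Glul (adjusted p = 0.0198) was higher in all 3, each below the fold-change threshold. The 6 macrophage markers summed to 37.2, 47.1 and 38.1 CPM against 32.1, 43.2 and 27.2 CPM, with Cd68 the most abundant. Their fitted values ran from -0.74 to -0.01, with a median of -0.23, and 3 had an unadjusted p-value under 0.05 in edgeR, all lower. These were C1qa, Adgre1 (-0.65, SE 0.22, adjusted p = 0.0625) and Csf1r (-0.40, SE 0.16, adjusted p = 0.102). Only C1qa was called lower (-0.74, adjusted p = 0.0302), where 5.38% of all tested genes were. The C1qa call was lost without pair 1 or 3 (0.126 and 0.0953) or any culture of them, with a log2 fold change of -0.41 without pair 3, -0.43 without its vehicle culture and -0.415 without its treated culture, with ComBat-seq and limma (0.0508) and without the block (0.702). The 4 neutrophil markers summed to at most 11.96 CPM, with S100a9 and S100a8 the most abundant per kilobase. Their median log2 fold change was -0.27, and 2 had an unadjusted p-value under 0.05 in edgeR, both lower. Ngp was called lower (-0.97, adjusted p = 0.0122), and its call was lost without pair 1 or 2 (0.0641 and 0.108) or any culture of them and without the block (0.427). Mast cell markers summed to at most 1.05 CPM, with Cpa3 and Tpsb2 the most abundant, and the 6 endothelial and mural markers, with Rgs5 and Pdgfrb the most abundant per kilobase, to 484 ± 53.2 CPM in vehicle and 476 ± 89.1 CPM in treated cultures (SD, n = 3 each), with 0 called in edgeR in either list and 1 gene, Rgs5, at an unadjusted p-value under 0.05. No marker of these lists was at 0 in all cultures. The part of these cells in the members' values was not tested.

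**Figure D5:**
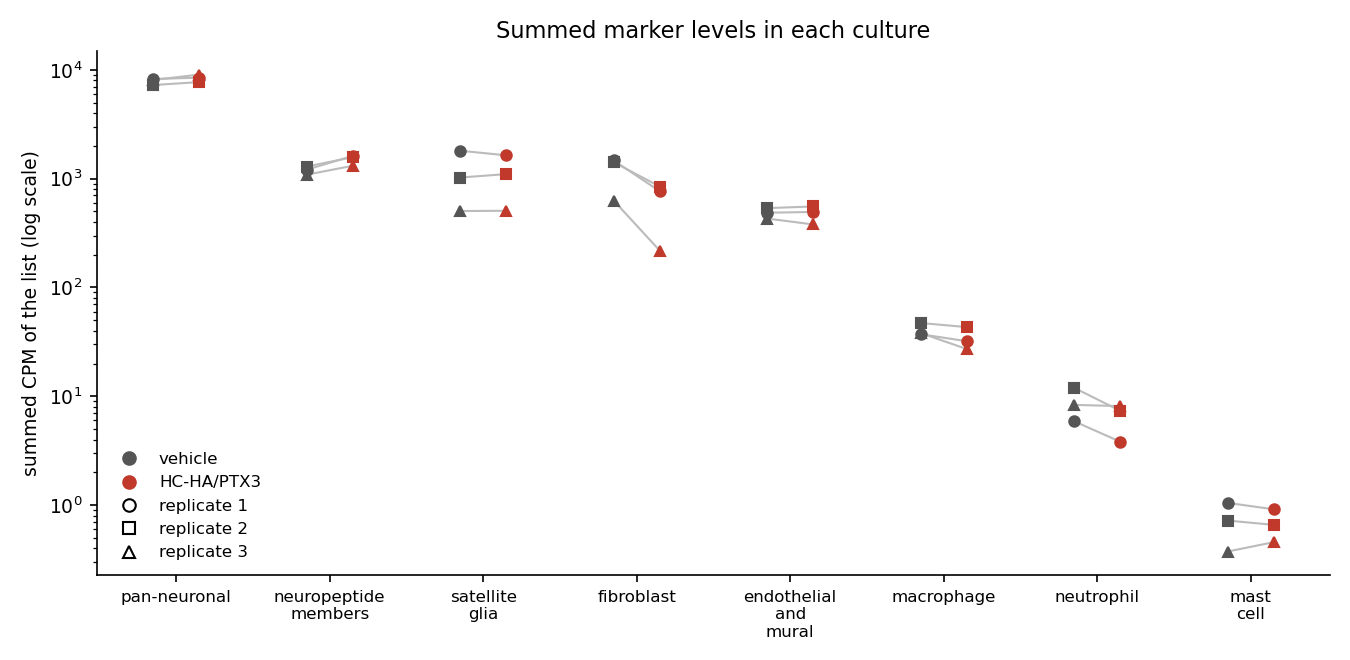
Summed CPM (vertical axis, log scale) of the marker lists and of the 10 neuropeptide genes in each culture, vehicle in grey and HC-HA/PTX3 in red, with symbols for the replicate number and lines joining same-numbered cultures. The fibroblast sum is lower in the treated culture of all 3 pairs, at 218 CPM in treated replicate 3, and the satellite glia sum separates the replicate numbers in both groups.

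Scaling each library to its 13 pan-neuronal markers, in place of TMM, shifted the median log2 fold change of all genes to -0.105 and the calls to 410 higher and 1506 lower genes (78.6% lower), against 607 and 984 with TMM (61.8% lower). Tac1, Calcb and Nppb were called under it too, at log2 fold changes of 0.91, 0.58 and 0.79, while Adcyap1 was at 0.13 with an adjusted p-value of 0.132 in edgeR, no longer under the threshold. Calca was at 0.14, Gal at 0.085 and Cartpt at 0.16, against 0.23, 0.18 and 0.25 with TMM, and the median of the 9 tested members was 0.156 against 0.255. With no filter but 1 count, where Vip was fitted too without being called, the median of the 10 members was 0.391. With pan-neuronal scaling, Nmb was at 0.46, below the fold-change threshold, and Ramp3 had an adjusted p-value of 0.0503 in edgeR.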

How the data were processed

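RNA was measured in 6 cultures, grouped and numbered by the labels, in 3 same-numbered pairs. The authors aligned read pairs to mm10, removed ribosomal RNA and deposited raw counts per gene symbol, neither normalized nor pooled. The submitters' processing notes name HISAT2, featureCounts, Subread, limma and edgeR, the table headers name STAR, and the strand setting is not given in the sources used here. Fits ran in R 4.3.3 with edgeR 4.0.16, DESeq2 1.42.0, sva 3.50.0 and limma 3.58.1. After filterByExpr with treatment as group, 18277 genes were tested with glmQLFit and glmQLFTest, TMM scaling, the replicate number as a block and Benjamini-Hochberg adjustment over all of them. The study's methods name a batch term but list no batch, and the replicate number stood in for it. Across genes, which are not independent replicates, the departure of a culture from its group's mean log2 CPM correlated with that of the same-numbered culture at 0.631, 0.536 and 0.774, and with those of other numbers at -0.613 to 0.148. Departures from a group's mean add up to 0, so correlations above 0 for the same number pull those of other numbers down. The block followed the study's batch term and the comparison within same-numbered replicates, and these correlations are no independent test of it. No culture was a copy of another in its group, as chi-square over its degrees of freedom was 34.1 or more. Text names all 10 members and, of the gene lists described other than the sympathetic one, called genes and the 2 with the highest mean vehicle CPM per kilobase, and any other named gene was chosen after its values were seen. The members and lists were chosen with earlier results of these data known. The fits of all 6 cultures, apart from DESeq2 and limma-voom without the block, were tested on simulated data, and those with a culture or pair left out were not. Alternatives covered other tests, scalings, filters, thresholds and omitted cultures or pairs, the count tables hold no comparison columns, and the authors' lists of changed genes were not used.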

Additional observations from a re-analysis of the deposited data

How the results depend on the processing

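Over 22 alternatives none of the 9 tested members changed sign, and Vip is not among them. Calca, Gal, Npy and Cartpt were called in none of them, and Tac1 and Calcb kept their call in 20 of 22 each. The 22 are not independent. The alternative with no fold-change threshold is the main fit itself, so a called gene could not lose its call there. Leaving out a culture nearly repeats leaving out its pair. The threshold of the adjusted p-value alone was crossed by some alternatives. That value ran from 0.00374 to 0.512 for Calca, from 0.00378 to 0.87 for Gal and from 0.0087 to 0.788 for Cartpt. Without the block, edgeR and limma-voom (the latter, like unblocked DESeq2, added after seeing the data) gave Tac1 1.007 and 1.009, Calcb 0.67 and 0.68 and Nppb 0.88 and 0.90, none called, with 0 genes, 0 members, 0 receptors and 0 other precursors called by either. DESeq2 without the block called 343 genes, 0 receptors and 1 other precursor. With no fold-change threshold, 3505 genes, Adcyap1 (0.23) and 4 processing genes were called. ComBat-seq with limma called Sst (0.59), 5 receptors and 7 other precursors. DESeq2 with the block and pan-neuronal scaling each called 1 receptor. With a culture or pair left out, 878 to 2010 genes, 2 to 3 members, 0 to 3 receptors and 1 to 3 other precursors were called, Nppb ran from 0.699 to 1.031 and Tac1 from 0.958 to 1.057. Without pair 1, 2 or 3 the log2 ratio of Calcb to Calca was higher by 0.59, 0.41 and 0.32. A culture left out also removes its pair from the comparison. Of 306 values of 14 called list genes, 218 kept the call, 88 lost it and 0 changed sign. Nmu had no value with the filter of 10 counts and no adjusted p-value with blocked DESeq2. The cause of these differences was not tested. At 37.1 counts per CPM or more, depth limits Vip, Sst, Nppb and the rarer receptors.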

Other observations

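Subtype and injury markers give the setting in which the neuropeptide genes were measured. Mrgprd, which marks a non-peptidergic class, rose by 0.62 (SE 0.10, adjusted p = 0.00267 in edgeR, or 0.63 without the block), while the other 3 markers of that list had fitted values of 0.05 (P2rx3, the most abundant per kilobase, SE 0.07), -0.11 (Lpar3, SE 0.13) and -0.34 (Gfra2, SE 0.10). The treated cultures of Gfra2 lay wholly below the vehicle cultures (adjusted p = 0.0466 in edgeR), below the fold-change threshold, and the median of the 4 was -0.03. Of 3 markers of an itch-related class other than the one that holds Nppb and Sst, 2 passed the filter, Mrgprx1 and Mrgpra3. Both were called lower, where 5.38% of all tested genes were. Mrgprb4 was not tested, with 2, 0 and 9 counts in vehicle and 8, 0 and 8 counts in treated replicates 1, 2 and 3. Mrgprx1 was at 27.3, 14.5 and 15.8 CPM in vehicle and at 9.16, 6.015 and 7.95 CPM in treated replicates 1, 2 and 3, without overlap (log2 fold change -1.28, SE 0.13, adjusted p = 0.000481 in edgeR, or 0.251 without the block). Mrgpra3 changed by -0.56 (adjusted p = 0.0484, or 0.76 without the block), and its call was lost in 13 of 22 alternatives, among them without pair 1 or 2 (0.355 and 0.194) and with DESeq2 and the block (0.089). The 5 markers of large myelinated neurons had 0 calls in edgeR with 2 at an unadjusted p-value under 0.05, and Spp1 and Nefh, the most abundant of them per kilobase, had fitted values of -0.02 (SE 0.07) and 0.14 (SE 0.09).

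Of 9 genes associated with axon injury, 1 was called higher and 1 lower, where 8.70% of all tested genes were called in either direction. Gadd45a was at 104, 77.2 and 78.5 CPM in vehicle and 148, 117.5 and 119 CPM after treatment, without overlap (log2 fold change 0.57, SE 0.06, adjusted p = 0.000639 in edgeR, or 0.286 without the block). Csf1 changed by -0.59 (SE 0.08, adjusted p = 0.00165, or 0.529 without the block), and without pair 3 by -0.44, below the fold-change threshold, as it was without either culture of that pair. Gadd45a was below it with pan-neuronal scaling (0.47). Of the 9, 4 had an unadjusted p-value under 0.05 in edgeR, 2 of them lower. Besides the called genes these were Atf3 and Sprr1a. Atf3 was higher in 3 of 3 pairs, below the fold-change threshold (log2 fold change 0.23, SE 0.06, adjusted p = 0.0304 in edgeR, or 0.607 without the block). Sprr1a changed by -0.35 (SE 0.14, adjusted p = 0.118). Gap43 and Jun, the most abundant of this list per kilobase, changed by -0.07 (SE 0.06) and 0.08 (SE 0.07), and Gal, which also increases after injury, was not called.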
